A study of Mus musculus with 12 samples.

Results

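The genes described are myeloid C-type lectin receptors and the adaptor Card9, followed in skin of a mouse model of cutaneous lupus erythematosus (CLE). The rule named 5 mouse genes, and a probe belonged to a gene if its RefSeq transcript maps to it. It found 3 of them among the 561 gene probes: Clec4e (Mincle, NM_019948), Clec5a (MDL-1, NM_001038604) and Card9 (NM_001037747). No row matched Clec4n (Dectin-2) or Clec7a (Dectin-1), which were not analysed here. Clec4e lies on mouse chromosome 6 at 123281789 to 123289871, Clec5a on chromosome 6 at 40574898 to 40585805 and Card9 on chromosome 2 at 26352187 to 26360945 (GRCm38.p6).

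C-type lectin receptors of macrophages, neutrophils and dendritic cells sense fungal and mycobacterial glycolipids and material released by dying cells. Mincle passes its signal through the Fc receptor gamma chain Fcer1g, and MDL-1 through the adaptor Tyrobp (DAP12). Both adaptors recruit the kinase Syk. Downstream of Mincle and the Dectins, Card9 joins Bcl10 and Malt1 in a complex that activates NF-kB and leads to the transcription of Il1b, Il6 and other inflammatory genes. Clec4e is itself an inducible gene, described in mouse macrophages as a target of C/EBP-beta after exposure to bacterial lipopolysaccharide.

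The RNA came from 12 female mice and was read on the NanoString immunology panel for mouse, which counts barcoded probes bound to single transcripts. Every mouse had received OT2 CD4 T cells, whose receptor recognises an ovalbumin peptide, after 10 days of culture towards the T helper 2 state. Lesional skin of diseased mice was frozen at the onset of disease, roughly 3 to 4 weeks after transfer, and skin from similar sites was frozen from littermates. Each library is labelled as a mouse of its own, and the labels give no age.

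The 4 Merkel het CLE mice were rtTA+ K5TGO+, expressed the autoantigen, and carried Atoh1flox/wt with K14Cre, which acts in the epidermis. Their labels describe a loss of part of the Merkel cells, the touch-sensing cells that need Atoh1. Merkel het CLE 1 and 2 were TLR9wt/wt, and 3 and 4 were TLR9ko/ko. The 4 CLE mice were rtTA+ K5TGO+ TLR9ko/ko mice of the parental strain with their Merkel cells. The 4 littermates could not express the autoantigen. Littermate 1 was rtTA- K5TGO- TLR9ko/wt and Atoh1flox/flox K14Cre-. Littermate 2 was rtTA- K5TGO+ TLR9ko/ko and Atoh1wt/wt K14Cre-. Littermate 3 was rtTA- K5TGO+ TLR9ko/ko and Atoh1flox/wt K14Cre+. Littermate 4 was rtTA+ K5TGO- TLR9ko/ko and Atoh1flox/flox K14Cre+. Littermates 1 and 2 still had Merkel cells, littermate 3 had lost part of them and littermate 4 all. Where the series description differs, in calling every group TLR9-deficient, the labels of the samples were followed. TLR9 genotype, strain and K14Cre thus differ between and within the groups. Their part in the differences between groups cannot be told apart from group membership where they coincide with it.

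The deposited values, called units here, are barcode counts multiplied by 1 factor per lane, which ran from 0.715 to 5.56. The libraries held 99297 to 682043 recovered gene counts. A value counted as above background if it exceeded the mean of the 8 negative controls in its lane by more than 2 SD. That threshold lay at 106 units in CLE 1, 116 in littermate 2 and 53.2 in CLE 2, the lanes with the largest factors, and between 17.6 and 33.8 units in the other 9. Tlr9 read 27.4 to 156 units in the 9 ko/ko libraries and 21.7 to 55.8 in the other 3. Where its probe lies relative to the deletion is not stated, so these values do not check the genotype. None of the 7 keratinocyte and epithelial markers and none of the 5 Merkel cell markers chosen to check the tissue matched a row, so the skin and Merkel cell labels were not checked.

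The sequences before the start sites of the 3 genes are shown as a description, and their part in the readings was not tested. Each is the 250 bases before the start site in the RefSeq promoter table, on the gene's own strand and on GRCm38.p6. Capitals mark matches to the 4 motifs searched on both strands, which were TTGCNNAA (C/EBP), GGG and CC separated by 5 bases (NF-kB), GAGGAAGT (PU.1 core) and TGANTCA (AP-1). Those of Clec4e and Clec5a end where the gene begins, while 36 bases of the Card9 window lie inside the annotated gene, since the promoter table starts Card9 further in. The Clec4e window is chr6:123289872-123290121 on the minus strand, the Clec5a window chr6:40585806-40586055 on the minus strand and the Card9 window chr2:26360910-26361159 on the minus strand.
Clec4e: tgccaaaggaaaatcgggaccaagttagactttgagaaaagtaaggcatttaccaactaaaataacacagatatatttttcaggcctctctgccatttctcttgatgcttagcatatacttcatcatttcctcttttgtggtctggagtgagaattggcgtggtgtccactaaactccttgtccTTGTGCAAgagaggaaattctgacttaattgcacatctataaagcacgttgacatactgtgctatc
Clec5a: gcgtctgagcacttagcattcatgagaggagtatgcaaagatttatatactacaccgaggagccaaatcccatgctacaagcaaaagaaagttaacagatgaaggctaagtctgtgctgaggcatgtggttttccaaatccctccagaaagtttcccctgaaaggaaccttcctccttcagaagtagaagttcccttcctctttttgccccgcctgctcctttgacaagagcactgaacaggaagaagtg
Card9: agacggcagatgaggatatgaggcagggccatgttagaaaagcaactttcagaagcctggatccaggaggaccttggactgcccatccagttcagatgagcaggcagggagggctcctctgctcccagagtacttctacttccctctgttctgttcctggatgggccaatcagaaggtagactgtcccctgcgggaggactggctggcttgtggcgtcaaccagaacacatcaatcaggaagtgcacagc

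The Clec4e window held 1 match to the C/EBP letters, on the opposite strand, starting 66 bases before the start site. The windows of Clec5a and Card9 held no match to any of the 4 motifs, and the Clec4e window none to the other 3. Of 32851 mouse promoter windows of the same length, 9.56% held the C/EBP letters, 45.8% those of NF-kB, 2.44% those of PU.1 and 6.75% those of AP-1. A match is a run of letters and not a measured binding site.

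Clec4e was near background in littermate skin and well above it in most diseased skin. Merkel het CLE 1 to 4 read 299, 71.5, 778 and 134 units. CLE 1 to 4 read 2530, 153, 25.1 and 82.4 units. Littermates 1 to 4 read 10.9, 16.2, 12.2 and 12.1 units. All 4 Merkel het CLE libraries, 3 of 4 CLE libraries and 0 of 4 littermates were above their background, the exception in disease being CLE 3. Of the 549 gene probes that are not reference genes, 73.8% were above background in all 4 Merkel het CLE libraries, 57.7% in all 4 CLE libraries and 51.4% in all 4 littermates. The 8 diseased values all exceeded the highest littermate value, although CLE 3 did so at a level below background. Littermate 2 rests on 4 recovered counts, so its 16.2 units say only that the transcript was not detectable at this depth. Merkel het CLE 2, CLE 3 and CLE 4 read under the threshold of that lane, 116 units. The reading of CLE 1 rests on 455 recovered counts, far over its threshold of 19.1 counts.

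Clec4e also spread widely among diseased mice. The highest value was 101 times the lowest in CLE and 10.9 times in Merkel het CLE, against 1.49 times in littermates, whose values lie in the background. The mean was 321 ± 320 units in Merkel het CLE, 698 ± 1223 in CLE and 12.8 ± 2.31 in littermates (SD, n = 4 each). CLE 1 alone set the CLE mean above that of Merkel het CLE, and the median was 217 units in Merkel het CLE against 118 in CLE.

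**Figure D1:**
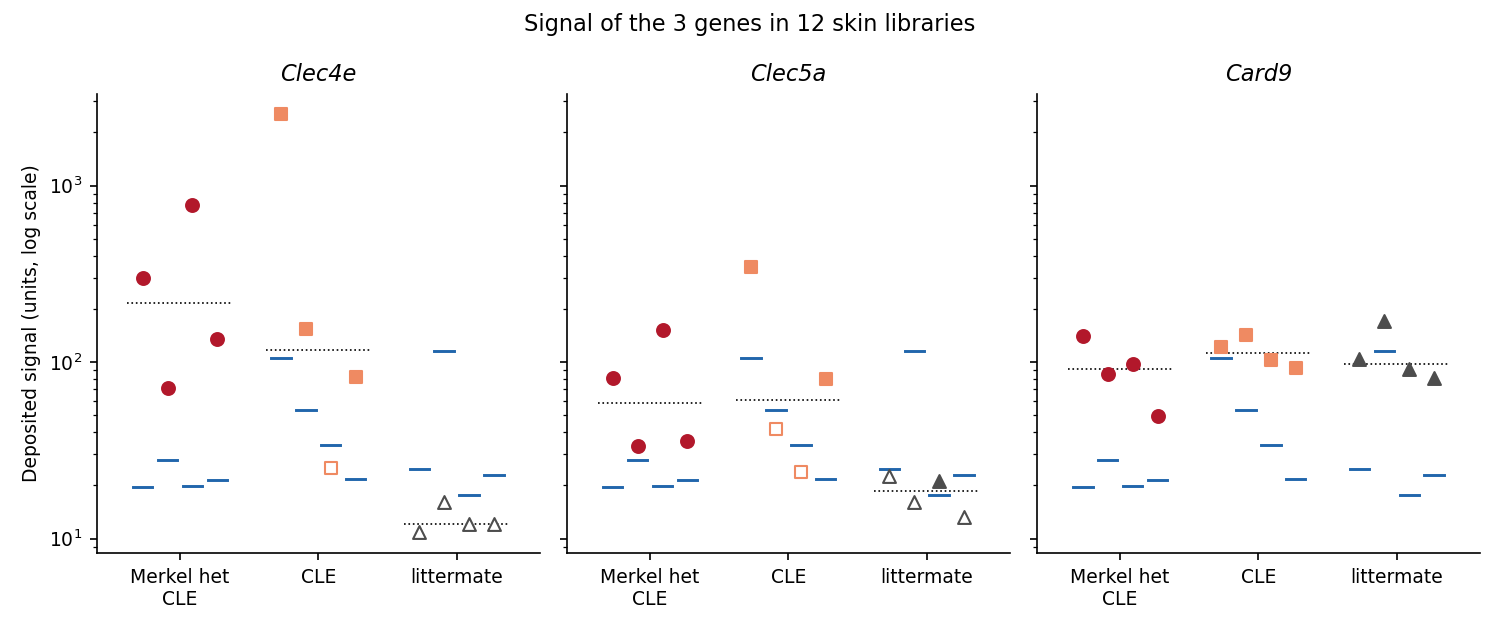
Deposited signal of Clec4e, Clec5a and Card9 (units, log scale) in each of the 4 Merkel het CLE, 4 CLE and 4 littermate libraries, in the order of replicate number. Filled symbols were above background and open ones were not, blue dashes give each library's background threshold and dotted lines the group medians; Clec4e lies below background in all 4 littermates, while Card9 is above it in all 12 libraries.

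Clec5a, a receptor of monocytes, macrophages and neutrophils, was likewise higher in diseased skin than in littermate skin, without passing the test below. Merkel het CLE 1 to 4 read 81.6, 33.3, 153 and 35.7 units. CLE 1 to 4 read 345, 42.0, 23.7 and 80.1 units. Littermates 1 to 4 read 22.7, 16.2, 21.3 and 13.3 units. It was above background in all 4 Merkel het CLE libraries, in CLE 1 and CLE 4, and in littermate 3 alone among littermates. The 8 diseased values again exceeded every littermate value, but CLE 3, at 23.7 units, did so by about 1 unit and lay below its background. Littermate 2 again rests on 4 recovered counts. The threshold of its lane, 116 units, lies above most diseased readings, so separation from littermate 2 was not established. The highest value was 14.5 times the lowest in CLE and 4.59 times in Merkel het CLE, against 1.71 times in littermates. Group means were 75.9 ± 56.0 units in Merkel het CLE, 123 ± 150 in CLE and 18.4 ± 4.39 in littermates (SD, n = 4 each).

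Card9, the intracellular adaptor, was above background in all 12 libraries, as were 57.6% of the tested genes. Merkel het CLE 1 to 4 read 140, 85.2, 98.0 and 49.4 units. CLE 1 to 4 read 122, 143, 103 and 92.8 units. Littermates 1 to 4 read 104, 170, 91.1 and 81.1 units. The 3 groups overlapped throughout. The lowest value came from Merkel het CLE 4, and the highest from littermate 2, where it rests on 42 recovered counts. Means were 93.2 ± 37.5 units in Merkel het CLE, 115 ± 22.2 in CLE and 111 ± 40.01 in littermates (SD, n = 4 each).

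Relative to littermate skin, Clec4e rose in Merkel het CLE skin by 4.00 ± 1.14 log2 units (SE; n = 4 in each group; 95% interval 1.52 to 6.48; limma adjusted p = 0.0463). It was 1 of 3 members called, against 11.8% of the 451 tested genes, of which 4.88% were called higher. Clec4e entered the test through 7 diseased libraries above background, and with no filter on low values its adjusted p was 0.051 and the call was lost. With the background thresholds of the littermates in place of their readings, the difference was at least 6.43-fold. That bound covers background and not the spread between mice. Clec5a had a difference of 1.74 ± 0.72 (95% interval 0.16 to 3.31; adjusted p = 0.125) and did not pass. Card9 had a difference of -0.29 ± 0.36 (95% interval -1.07 to 0.49; adjusted p = 0.59). By their readings, 2 of 3 members were higher without overlap, as were 13.7% of tested genes. The reading of littermate 2 limits this for both lectins.

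The Clec4e call was lost in some fits without 1 library and kept in others. Without any 1 of littermates 1 to 4 its adjusted p was 0.108, 0.087, 0.1 and 0.101. Without Merkel het CLE 1, 3 or 4 it was 0.113, 0.12 and 0.0629, and without CLE 2, which informs the shared spread, 0.0575. The call was kept without Merkel het CLE 2 (adjusted p = 0.0371), CLE 1 (0.00562), CLE 3 (0.0163) or CLE 4 (0.0492). Over all 12 fits without 1 library the difference lay between 3.39 and 4.53. With values below background set to the threshold it was 2.69 ± 1.17 with an adjusted p of 0.168. Among TLR9 ko/ko libraries alone, with 2 Merkel het CLE and 3 littermates, it was 4.50 ± 1.61 with an adjusted p of 0.213. Without the K14Cre+ littermates it was 3.94 with an adjusted p of 0.247.

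**Figure D2:**
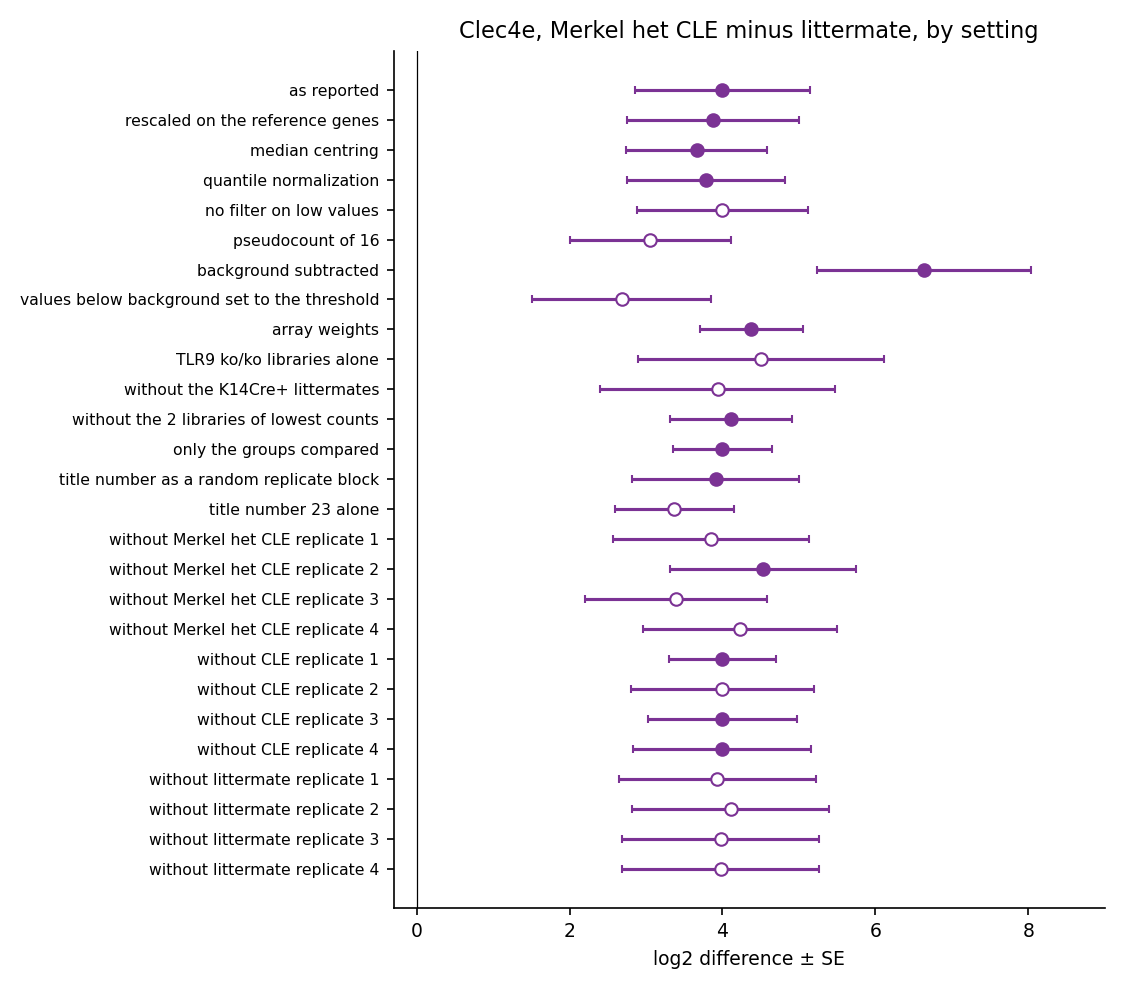
Log2 difference of Clec4e between Merkel het CLE and littermate libraries (horizontal axis, ± SE) under each processing setting or with 1 library left out (rows). Filled points had a limma adjusted p under 0.05; the difference was positive in every setting, from 2.69 to 6.64, and 12 of the 26 alternatives kept the call.

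The second comparison set CLE skin against littermate skin. Clec4e had a log2 difference of 3.64 ± 1.14 (95% interval 1.16 to 6.12; limma adjusted p = 0.125; n = 4 per group). Clec5a had 1.96 ± 0.72 (95% interval 0.38 to 3.54; adjusted p = 0.13) and Card9 0.09 ± 0.36 (95% interval -0.69 to 0.87; adjusted p = 0.887). None of the 3 passed by limma, as did 0% of the 451 tested genes. At an unadjusted p under 0.05 there were 2 of 3 members, Clec4e at 0.00767 and Clec5a at 0.0191, and 26.6% of tested genes. By their readings, both lectins were higher without overlap, as were 7.1% of tested genes, but CLE 3 and littermate 2 were below background for both. The median difference of all tested genes was 0.35 here. Relative to it, Clec4e stood at 3.29, Clec5a at 1.61 and Card9 at -0.26, and the sign of Card9 turned with median centring and quantile normalization.

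Both lectins depended on single CLE libraries in this comparison. Without CLE 3, the mouse with the lowest Clec4e and Clec5a of its group and a skin disease score of 1, Clec4e stood at 4.54 ± 1.05 (limma adjusted p = 0.0127) and Clec5a at 2.49 ± 0.69 (adjusted p = 0.0233). Without CLE 1 they stood at 2.34 ± 0.76 (adjusted p = 0.275) and 1.22 ± 0.56 (adjusted p = 0.305). Over the other 6 leave-one-out fits that remove a CLE library or a littermate, Clec4e ran from 3.57 to 3.99.

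With both disease groups averaged against littermates (8 against 4), Clec4e rose by 3.82 ± 0.99 (95% interval 1.67 to 5.97; limma adjusted p = 0.0424). With thresholds in place of the littermate readings, all below background, the difference was 5.68-fold. That is not a lower bound, since CLE 3 was itself below background and entered as read. With all low values at the threshold the log2 difference was 2.56 with an adjusted p of 0.137. Clec4e was 1 of 3 members called higher, against 5.32% of tested genes. Clec5a had 1.85 ± 0.63 (95% interval 0.48 to 3.22; adjusted p = 0.0734). Card9 had -0.10 ± 0.31 (95% interval -0.77 to 0.57; adjusted p = 0.848). By their readings, both lectins were higher without overlap, against 3.55% of tested genes, with the same limit from CLE 3 and littermate 2. The littermates are shared with the first 2 comparisons, so these values are not a repeat of them. Leaving out single libraries ended the Clec4e call here too: its adjusted p ran from 0.0857 to 0.119 without 1 of the 4 littermates, was 0.0759, 0.0658 and 0.0524 without Merkel het CLE 1, 3 or 4, and was 0.06 and 0.0511 without CLE 2 or 4. Without CLE 3 Clec5a passed, at 2.11 ± 0.57 (adjusted p = 0.0174).

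**Figure D3:**
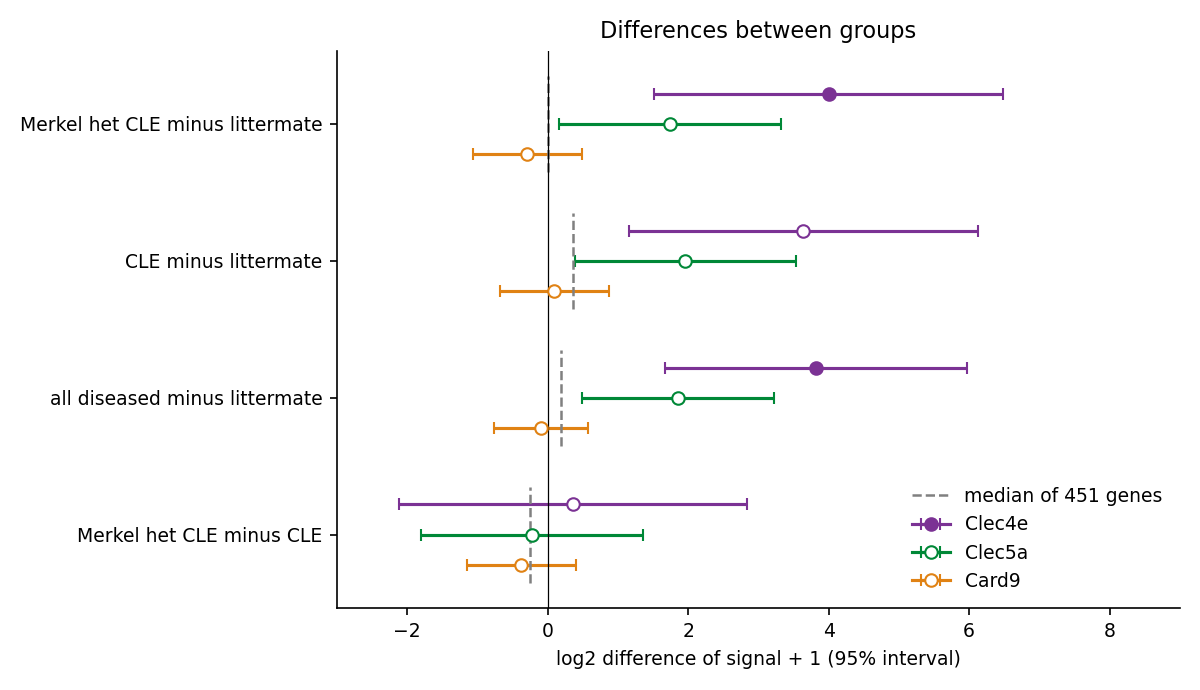
Log2 differences of Clec4e, Clec5a and Card9 (horizontal axis, points with 95% intervals) in 4 comparisons between groups (rows), with the median of the 451 tested genes as a dashed line. Filled points passed by limma; Clec4e passed in 2 comparisons against littermates, and all 3 genes lay around 0 between the disease groups.

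Between the disease groups, the intervals left room for differences of either sign. Merkel het CLE minus CLE gave 0.36 ± 1.14 for Clec4e (95% interval -2.12 to 2.84; limma adjusted p = 0.905). It gave -0.22 ± 0.72 for Clec5a (95% interval -1.80 to 1.35; adjusted p = 0.905) and -0.38 ± 0.36 for Card9 (95% interval -1.16 to 0.40; adjusted p = 0.58). None of the 3 was called, against 0.222% of tested genes, and none had an unadjusted p under 0.05, against 19.3%. The groups overlapped for all 3 members and were apart for 7.98% of tested genes. A Clec4e difference of about 4-fold in either direction would lie inside its interval.

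The readings of the 3 genes were also compared with each other. The lane factor largely cancels in ratios within a library, though not fully at low readings, since 1 was added to each signal. Such ratios were compared between diseased and littermate libraries for the 3 pairs of genes. The log2 ratio of Clec4e over Card9 was 1.09, -0.25, 2.98 and 1.43 in Merkel het CLE 1 to 4 and 4.36, 0.10, -2.0 and -0.17 in CLE 1 to 4. In littermates 1 to 4 it was -3.14, -3.31, -2.81 and -2.65. All 8 diseased libraries lay above the littermates, by 3.92 on average (two-sided exact permutation test, p = 0.00404, the smallest that these 12 libraries allow; 0.00606 adjusted over the 3 pairs).

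The ratio of Clec4e over Clec5a was 1.97 higher in diseased libraries (exact permutation p = 0.00404, adjusted 0.00606), above the littermates in 8 of 8. Its mean was 1.5 ± 1.02 in 8 diseased libraries and -0.47 ± 0.48 in 4 littermates (SD). CLE 3 and CLE 4, at 0.08 and 0.04, lay just above littermate 2, at 0. The ratio of Clec5a over Card9 was 1.95 higher (exact permutation p = 0.00808, adjusted 0.00808), above all littermates in 7 of 8. Most littermate readings of the lectins are background. With such values set to the threshold, the 3 differences were 2.66, 1.51 and 1.14, with adjusted p of 0.0242, 0.0242 and 0.0606, so the call for Clec5a over Card9 was lost. That step puts both lectins at the threshold in littermates 1, 2 and 4, which fixes the ratio of Clec4e over Clec5a there. Whether Clec4e rose more than Clec5a can therefore not be told from their ratio.

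**Figure D4:**
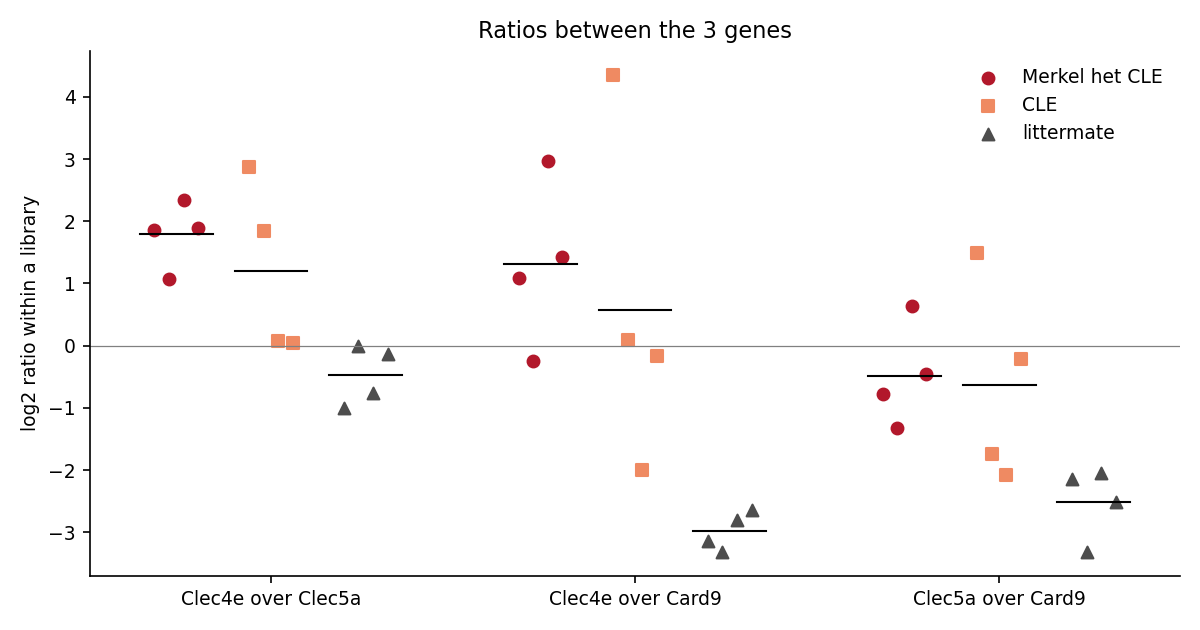
Within-library log2 ratios (vertical axis) of Clec4e over Clec5a, Clec4e over Card9 and Clec5a over Card9 in Merkel het CLE, CLE and littermate libraries, with group means as bars. For both ratios with Clec4e on top, the 8 diseased libraries lie above the 4 littermates; for Clec5a over Card9 1 diseased library, CLE 3, overlaps them.

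Among the 8 diseased libraries, Clec4e and Clec5a were high and low in the same mice. CLE 1 and Merkel het CLE 3 had the highest and second highest values of both, and CLE 3 the lowest of both. Pearson's r of the log2 values was 0.927 (exact permutation p = 0.00179, adjusted over 3 pairs 0.00536) and Spearman's rho 0.929 (exact permutation p = 0.00223, adjusted 0.0067). Without CLE 1 and CLE 3, the mice farthest from the median of Clec4e, r was 0.771. Within groups of 4, r was 0.977 in Merkel het CLE and 0.936 in CLE. Card9 was less related to either lectin, with r of 0.279 to Clec4e (exact permutation p = 0.509) and 0.337 to Clec5a (exact permutation p = 0.407). Without the 2 farthest mice these were 0.28 and 0.331, and rho was 0.429 (exact permutation p = 0.299) and 0.357 (exact permutation p = 0.389). Adjusted over the 3 pairs, the p-values were 0.509 for both r and 0.389 for both rho. The 2 lectin values of a library share its lane factor, RNA and disease state.

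**Figure D5:**
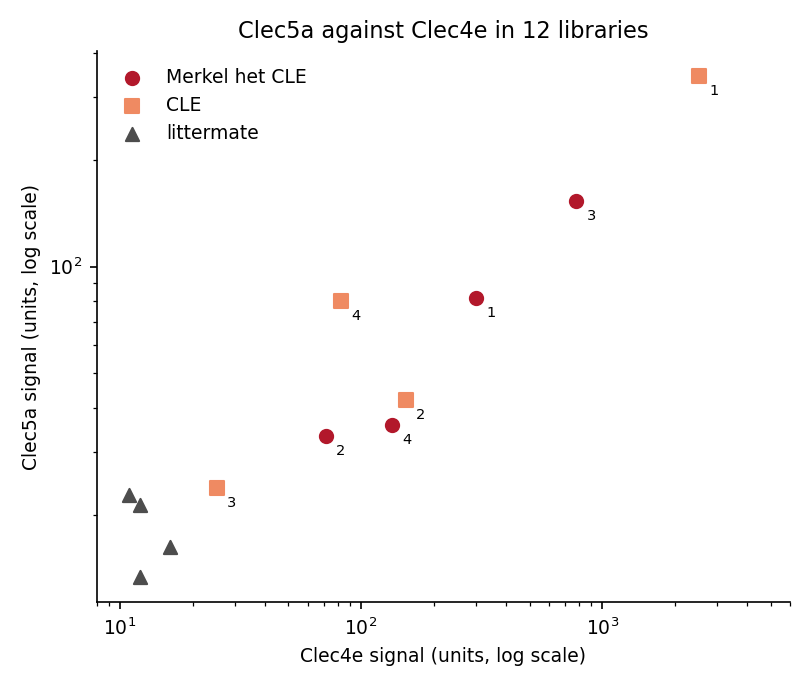
Clec5a signal against Clec4e signal (units, both axes logarithmic) in the 12 libraries, with replicate numbers beside the diseased mice. CLE 1 and Merkel het CLE 3 are highest and CLE 3 lowest of the diseased libraries on both axes, and the littermates sit in the background of the Clec4e probe, as do 3 of the 4 for Clec5a.

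The slope of the lectin readings on the skin disease score did not pass. Scores were 3, 2, 2 and 2.5 in Merkel het CLE 1 to 4 and 2.5, 1, 1 and 3 in CLE 1 to 4. Merkel het CLE 3, with a score of 2, had more Clec4e than Merkel het CLE 1, with a score of 3, and CLE 4, also scored 3, had less Clec4e than CLE 2, scored 1. For Clec5a, CLE 1 and 4, scored 2.5 and 3, both lay above CLE 2 and 3, each scored 1. Merkel het CLE 3, scored 2, had more Clec5a than Merkel het CLE 1 and 4, scored 3 and 2.5. Within disease groups the slope per score unit was 1.00 ± 0.94 log2 units for Clec4e (95% interval -1.17 to 3.18; limma adjusted p = 0.806). It was 0.93 ± 0.54 for Clec5a (adjusted p = 0.718) and -0.04 ± 0.29 for Card9 (adjusted p = 0.953). Of the 451 tested genes 0% passed, and 4.43% had an unadjusted p under 0.05, against 0 of the 3 members.

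The genes whose pattern was most like each member were found by Pearson's r of log2 values over the 12 libraries, as a description. For Clec4e they were Plaur, the urokinase receptor (r = 0.984), Entpd1, the ectonucleotidase CD39 (0.978), and Cd14, the co-receptor for lipopolysaccharide (0.974). Plaur read 146 to 735 units in Merkel het CLE, 74.0 to 3192 in CLE and 41.5 to 60.7 in littermates. For Clec5a they were Itgam, the CD11b chain of myeloid integrins (0.984), Entpd1 (0.967) and Fcer1g (0.954). For Card9 they were the lymphoid transcription factor Ikzf1 (0.831), the cytokine Il7 (0.828) and Stat6, which transmits interleukin-4 signals (0.807). Without CLE 1 the r of the lectins' genes lay between 0.95 and 0.979, and that of the Card9 genes between 0.82 and 0.868. Ikzf1 and Il7 were above background in 8 and 10 of the 12 libraries.

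The adaptors that carry the lectins' signals read higher in many diseased libraries but passed in no comparison as reported. Of 20 listed adaptors and kinases 11 had a row and were tested, and 0 were higher and 0 lower in each comparison. The background shares are those given above for each comparison. The 0 depended on the processing. In Merkel het CLE against littermates, array weights called 4 higher and 2 lower, among 185 panel genes called. Only the groups compared gave 2 higher, Fcer1g and Syk, and 2 lower, Blnk and Prkcd. Rescaling on the reference genes called Prkcd lower. As reported, Blnk stood at -0.74 ± 0.31 there (limma adjusted p = 0.125). With the disease groups averaged, array weights called 6 higher and 1 lower, among 196 panel genes called, and background subtraction called Lcp2 higher. Without CLE 3, Fcer1g, Syk and Tyrobp were called higher and Blnk lower. The list median was 0.25 in Merkel het CLE against littermates and 0.63 in CLE against littermates, where all genes had medians of 0.01 and 0.35. Fcer1g, the partner of Mincle, read 285 to 1075 units in Merkel het CLE, 193 to 1418 in CLE and 177 to 296 in littermates. Its difference was 1.36 ± 0.57 in Merkel het CLE (limma adjusted p = 0.124) and 1.41 ± 0.57 in CLE (adjusted p = 0.148). Tyrobp, the partner of MDL-1, had 1.32 ± 0.68 (adjusted p = 0.218) and 1.78 ± 0.68 (adjusted p = 0.131). Syk, the kinase both recruit, had 0.98 ± 0.48 and 1.03 ± 0.48 (adjusted p = 0.192 and 0.185). Prkcd, the kinase between Syk and Card9, stood at -0.59 ± 0.19 in Merkel het CLE (adjusted p = 0.0637) and at -0.72 ± 0.19 relative to CLE (adjusted p = 0.0807). As reported, it was called in neither comparison.

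Of 26 listed Card9 partners and NF-kB genes 17 had a row and were tested. In Merkel het CLE against littermates 1 fell, 0 rose and 16 did not pass, with a median of -0.24. The gene that fell was Mapk14, the p38 alpha kinase, by 0.73 ± 0.20 (limma adjusted p = 0.0399), a call lost without any 1 littermate or Merkel het CLE 1, 3 or 4, and 6.87% of all tested genes were called lower there. It read 656 to 756 units in Merkel het CLE and 1016 to 1330 in littermates. None of the 17 passed in CLE against littermates, where the median was 0.13, nor in Merkel het CLE against CLE, where all 17 differences were negative with a median of -0.37 and all genes had -0.26. Nfkb2 and Tnfaip3, both induced by NF-kB itself, led that last comparison at -0.69 ± 0.24 and -1.13 ± 0.44 (adjusted p = 0.203 for both). Bcl10 and Malt1 were not analysed here.

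Genes known to be induced through this pathway, and through others, included 4 that rose in Merkel het CLE skin. Of 20 listed outputs 15 had a row and 12 were tested. Against littermates the median in Merkel het CLE was 2.33, against 0.01 for all genes. There 4.88% of all tested genes were called higher. Of the 12 outputs 4 rose, 0 fell and 8 did not pass. They were Il1b (4.62 ± 1.17), Ptgs2 (4.10 ± 0.95), Cxcl1 (3.34 ± 0.95) and Il6 (3.18 ± 0.85), with limma adjusted p of 0.0323, 0.0261, 0.0463 and 0.0399. The number that rose was 0 without any 1 of littermates 1 to 4 or of Merkel het CLE 1, 3 and 4, 2 without CLE 2, and 0 in TLR9 ko/ko libraries or without the K14Cre+ littermates. In CLE against littermates 0 passed, with 12 of 12 positive and a median of 1.49, led by Il1a at 1.56 ± 0.46 (adjusted p = 0.111) and the chemokine Ccl3 at 3.49 ± 1.19 (adjusted p = 0.13). With the disease groups averaged, Ptgs2 and Il1b rose, by 3.42 ± 0.82 and 3.99 ± 1.02 (adjusted p = 0.0424 for both), where 5.32% of all tested genes were called higher. The number of outputs that rose there was 0 without any 1 littermate, Merkel het CLE 1, 3 or 4, or CLE 2, against 6 without CLE 3. Between the disease groups 0 passed; Il6 stood at 2.42 ± 0.85 and Nos2 at -1.75 ± 0.67 (adjusted p = 0.203 for both). Il6 readings exceeded background in 2 CLE libraries and in 0 of 4 littermates, and those of Il1b in 1 littermate. Those of Ccl3 and Ccl4 exceeded it in 0 littermates. Il6, Ccl3 and Ccl4 thus entered the test through diseased libraries alone, and the filter left out Il10, Il23a and Csf2. The medians and the counts of positive differences for these outputs rest in part on that filter. Among other C-type lectins 2 of 27 had a row. Cd209g was tested and stood at -0.79 ± 0.57 in Merkel het CLE and -0.74 ± 0.57 in CLE relative to littermates (adjusted p = 0.37 and 0.389). Clec4a4 was above background in 1 library.

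Markers of the cells known to carry these lectins, and of T, mast, NK and B cells, were read in the same libraries. Of 9 neutrophil markers 5 had a row, and their summed signal was 9992 to 61264 units in Merkel het CLE, 1462 to 236806 in CLE and 224 to 613 in littermates, most of it S100a8 and S100a9. Cxcr2, the neutrophil chemokine receptor, was below background in all littermates and entered the test through 7 diseased libraries. In Merkel het CLE 4 of these 5 rose relative to littermates, and in CLE 0 of 5 passed. For each marker list the share of all tested genes called in Merkel het CLE was 4.88% higher and 6.87% lower. In CLE it was 0%. The 4 neutrophil calls became 0 without any 1 littermate or Merkel het CLE 1 or 3, and 2 without Merkel het CLE 4 or CLE 2. Of 14 macrophage and monocyte markers 11 were tested, with sums of 2089 to 8711 units in Merkel het CLE, 1400 to 12016 in CLE and 1355 to 2317 in littermates. Lilrb4a was the 1 of 11 that rose in Merkel het CLE, a call lost without any 1 littermate, Merkel het CLE 1, 3 or 4, or CLE 2, and all 11 differences were positive with a median of 1.42. Marco was below background in every library. Of 9 dendritic cell markers 4 were tested and 0 passed, with medians of -0.30 in Merkel het CLE and 0.45 in CLE relative to littermates; their sums were 123 to 297 units in Merkel het CLE, 189 to 555 in CLE and 202 to 307 in littermates. Sums of 6 T cell markers were 249 to 403 units in Merkel het CLE, 446 to 738 in CLE and 421 to 611 in littermates. Against littermates 3 of these 6 were lower by the test in Merkel het CLE, namely Cd3d, Cd3e and Cd247, which are parts of the T cell receptor complex. Of all tested genes 6.87% were called lower there. Cd4 and Cd5 went the other way without passing, at 0.30 ± 0.43 and 0.70 ± 0.57 (limma adjusted p = 0.669 and 0.429). In CLE 0 of 6 passed, with 4 of 6 positive and a median of 0.43. The 3 lower calls in Merkel het CLE became 0 without littermate 3, and 1, Cd3e, without any other littermate or Merkel het CLE 1 or 3. Of 2 mast cell markers 1 rose in Merkel het CLE, Fcer1a, a call lost without any 1 littermate, Merkel het CLE 1, 3 or 4, or CLE 2, with sums of 116 to 298 units in Merkel het CLE, 51.7 to 284 in CLE and 34.6 to 71.4 in littermates. Of 3 NK cell markers tested, Prf1 stood at -1.85 ± 0.33 in Merkel het CLE against littermates (limma adjusted p = 0.0114) and 2 did not pass. Relative to CLE it stood at -1.97 ± 0.33 (adjusted p = 0.0261). Prf1 was below background in every Merkel het CLE library. Of 2 B cell markers tested 0 passed. In whole skin, more cells of a type and more RNA per cell cannot be told apart, and the part of cell numbers in the lectin values was not tested.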

How the data were processed

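Per the labels' protocols, skin RNA came from Qiagen RNeasy columns and NanoString's own labelling procedure was used. The deposited signal of each of the 561 gene probes is a barcode count times 1 factor per lane, as the steps between values show; the labels do not state the normalization. In each lane 100% of values above a floor of 1 were whole multiples of the step (tolerance 0.02 units). The 14 control probes hold unscaled counts. The 8 with the lowest maximum over the libraries were taken as negative and the other 6 as positive controls. RefSeq names matched 549 probes.

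Genes above background (lane mean plus 2 SD of the negative controls) in at least 4 of 12 libraries were tested, which left 451; 98 genes and the 12 reference genes were not. All 3 members were tested. They passed this filter in 7 (Clec4e), 7 (Clec5a) and 12 (Card9) libraries. Differences are on the scale of log2(signal + 1), which understates those of low genes. They were fitted with limma 3.58.1 (R 4.3.3; 1 fit of 3 group means, variance trend, Benjamini-Hochberg over 451 genes, threshold 0.05). The ± values of differences are moderated SEs. Score slopes used the 8 diseased libraries with group as a term. Ratios were tested by exact permutation over the 495 splits of 12 libraries into 8 and 4 (scipy 1.17.1). On simulated data for Merkel het CLE against littermates over the 451 genes, limma recovered 40% of 2-fold, 90% of 4-fold and 100% of 8-fold changes, and called 3 of 251 unchanged genes. The simulated counts had the same dispersion for every gene, not each gene's own spread. The log2 SD of Clec4e was 1.48 in Merkel het CLE and 2.80 in CLE. The shares recovered therefore do not tell how often changes in such variable genes would be found. P-values measure the spread between mice.

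The members, lists, motifs and tests were chosen with earlier results of these data known. Genes are named by rule: the members; for each, the 3 genes with the highest Pearson's r; and list members that passed or had the smallest p. Other list and marker genes named in the text were chosen after their values were seen. The group averages, the correlations between members and setting low values to the threshold, and the counts of list calls under each alternative, were likewise chosen with the data known. Replicate numbers follow the order of the sample records. Some mice share a title number of unstated meaning.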

Additional observations from a re-analysis of the deposited data

Results flagged for a closer look

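Clec4e in CLE 1, at 2530 units, stood apart from the other CLE libraries, which read 153, 82.4 and 25.1 units. The gap to the next value, divided by the group's range, exceeded the 95% critical value of Dixon's test on the linear scale and not on the log2 scale. The 3 genes in 3 groups made 9 sets of values, each examined on both scales, and chance alone exceeds that value in about 5% of sets. CLE 1 had the largest lane factor, 5.56, and a background threshold of 106 units. Its neutrophil marker sum was the highest of all libraries, at 236806 units. Without CLE 1, Clec4e in CLE minus littermates was 2.34 ± 0.76 on the log2 scale (limma adjusted p = 0.275). The part of these features in the reading was not tested.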

How the results depend on the processing

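Clec4e was positive against littermates in all 75 alternatives over the 3 comparisons with them, and Clec5a in the same 75. The number of members called was less stable. In Merkel het CLE against littermates 1 member was called; it was 0 with no filter, with genes above background in all 12 libraries (which removes both lectins), with a pseudocount of 16, with low values set to the threshold, in TLR9 ko/ko libraries, without K14Cre+ littermates and in title number 23 alone, 2 with array weights or only the groups compared, and 0 to 2 without single libraries. In CLE against littermates 0 became 2 with array weights, and 0 to 2 without single libraries. With both disease groups averaged, 1 became 2 with median centring, background subtraction or array weights, 0 with the filter for all 12 libraries, the pseudocount of 16, the threshold, TLR9 ko/ko libraries, without K14Cre+ littermates or without the 2 libraries of lowest counts, and 0 to 2 without single libraries. The causes were not tested. All 3 ratio pairs were called, and 2 with low values at the threshold.

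Signs turned for small differences. Card9 turned to 0.073 with array weights in Merkel het CLE against littermates; to -0.38, -0.48, -0.059 and -0.22 in CLE against littermates with median centring, quantile normalization, background subtraction and without K14Cre+ littermates (-0.040 to 0.31 without single libraries); and to 0.20 with array weights and 0.11 without the 2 libraries of lowest counts in both groups averaged (-0.23 to 0.12 without single libraries). Its score slope turned to 0.000502 with the replicate block (-0.22 to 0.13 without single libraries). In Merkel het CLE minus CLE, Clec5a turned to 0.18, 0.38, 0.056, 0.024 and 0.52 with quantile normalization, background subtraction, array weights, TLR9 ko/ko libraries and without the 2 libraries of lowest counts (-0.75 to 0.52 without single libraries), and Clec4e to -0.14 with the score as a covariate (-0.54 to 1.66 without single libraries).

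A random replicate block for the title number (consensus correlation 0.213) put Clec4e at 3.91 ± 1.09 in Merkel het CLE against littermates and changed no member's call. Panel genes called there were 53 (22 higher, 31 lower), 60 with background subtraction (39 higher, 21 lower), 2 to 94 without single libraries, and 85, 80, 31, 23, 34, 25, 185, 0, 0, 121 and 10 with median centring, quantile normalization, no filter, the filter for all 12 libraries, the pseudocount of 16, the threshold, array weights, TLR9 ko/ko libraries, no K14Cre+ littermates, only the groups compared and title number 23 alone. For CLE against littermates 0 became 2, 9, 1 and 108 with median centring, quantile normalization, background subtraction and array weights, and 0 to 138 without single libraries. For both groups averaged 46 (24 higher, 22 lower) became 91 (38 higher, 53 lower), 85 (34 higher, 51 lower), 12, 11, 73 (53 higher, 20 lower), 10, 196, 0, 0, 4 and 29 with median centring, quantile normalization, the filter for all 12, the pseudocount, background subtraction, the threshold, array weights, TLR9 ko/ko libraries, no K14Cre+ littermates, without the 2 lowest libraries and with the block, and 0 to 131 without single libraries. Between the disease groups 1 became 7 when rescaled on the reference genes, 3 without the 2 lowest libraries, 0 in 10 other settings and 0 to 28 without single libraries. edgeR and DESeq2 on recovered counts were not run. Background limits Clec4e in littermates and CLE 3, and Clec5a in littermates 1, 2 and 4, CLE 2 and CLE 3. Card9 lay close to background in CLE 1.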
